A study of Mus musculus with 2 samples.

Results

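The serine/arginine-rich (SR) splicing factors Srsf1, Srsf2, Srsf3, Srsf4, Srsf5, Srsf6, Srsf7 and Srsf11 and the Tra2 proteins Tra2a and Tra2b are described here in embryonic mouse forebrain. They were chosen by name, as 10 of 43346 measured mouse genes, and every transcript that the deposited tables list for them was included, which gave 60 of 103639 mouse transcripts. All 10 passed the minimum of 10 TPM (the length-corrected abundance of a transcript or gene, scaled to a fixed sum per library) in both libraries that was used for the genes set beside them. By annotated type, 22 of their transcripts were coding, 13 were targets of nonsense-mediated decay, 20 were retained-intron transcripts and 5 had another type.

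The study profiled total RNA from forebrain of strain B6NCrl embryos, male and female together, at an embryonic age of 15.5 days. There was 1 group with 2 libraries, each from a separate pool: 78 embryos for replicate 1 and 62 embryos for replicate 2. Each library was made from 10 ng of RNA longer than 200 nucleotides. No treatment, genotype or second stage was sampled, so the comparisons below are between genes and between transcripts, with the spread of the 2 pools as the error.

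SR proteins bind exonic enhancers through RNA recognition motifs and recruit the spliceosome through tails rich in arginine and serine, which SRPK and CLK kinases phosphorylate. Many SR genes hold an ultraconserved poison exon, a cassette exon with an in-frame stop codon. Its inclusion sends the transcript to nonsense-mediated decay, and SR proteins promote this in their own transcripts, a feedback that limits their level.

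The sequences that define these transcripts are shown first, because each carries the stop codon by which its transcript is typed as a decay target. They come from GENCODE M21 on mm10. In each, the exon of a decay transcript lies wholly inside an intron of the most abundant coding transcript of its gene, and it is printed from its first base to the premature stop codon, which is in capitals.
Srsf3-201 exon 4: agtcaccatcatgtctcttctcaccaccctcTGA
Srsf4-203 exon 2: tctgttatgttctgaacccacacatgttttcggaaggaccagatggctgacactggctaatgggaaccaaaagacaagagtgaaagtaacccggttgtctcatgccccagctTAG
Srsf6-201 exon 3: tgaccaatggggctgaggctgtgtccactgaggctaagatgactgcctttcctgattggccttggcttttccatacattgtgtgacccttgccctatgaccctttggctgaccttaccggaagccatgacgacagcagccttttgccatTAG
Srsf7-203 exon 4: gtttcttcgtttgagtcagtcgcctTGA
Srsf11-206 exon 4: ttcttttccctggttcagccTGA
Srsf11-212 exon 3: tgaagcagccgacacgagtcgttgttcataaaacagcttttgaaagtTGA
Tra2a-202 exon 2: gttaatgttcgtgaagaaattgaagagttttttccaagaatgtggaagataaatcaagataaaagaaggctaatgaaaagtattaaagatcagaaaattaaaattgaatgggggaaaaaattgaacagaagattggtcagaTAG
Tra2b-206 exon 2: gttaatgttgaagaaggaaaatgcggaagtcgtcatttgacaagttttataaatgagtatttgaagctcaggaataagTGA

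The stop codon began at base 32 of the Srsf3 exon, which spans chr17:29039454-29039909 on the plus strand (456 nucleotides) inside intron 3 of 2150 nucleotides. In Srsf4 the exon spans chr4:131884276-131884482 on the plus strand (207 nucleotides), inside intron 1 of 17336 nucleotides, and its stop began at base 113. In Srsf6 the exon spans chr2:162932815-162933082 on the plus strand (268 nucleotides), inside intron 2 of 1283 nucleotides, and its stop began at base 150. These exons of Srsf3, Srsf4 and Srsf6 carry no GAAGAA on the transcript strand.

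Srsf11 has 2 such exons in the same intron 2 of 3774 nucleotides. The upstream one, at chr3:158024123-158024231 on the minus strand (109 nucleotides), has its stop at base 21. The downstream one, at chr3:158023243-158023359 on the minus strand (117 nucleotides), reads into a stop at base 48 in Srsf11-212, which joins it without the upstream exon. The Srsf7 exon, at chr17:80204622-80205081 on the minus strand, is 460 nucleotides long inside intron 3 and has its stop at base 26.

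The exons of the Tra2 pair share their place in the gene and their first bases. The Tra2a exon is at chr6:49252803-49253108 on the minus strand (306 nucleotides, stop at base 142), and the Tra2b exon is at chr16:22258986-22259261 on the minus strand (276 nucleotides, stop at base 79). Both lie in intron 1 of their gene, and both start with the same 9 bases. G and C made up 30.1% of the whole Tra2a exon and 32.6% of the Tra2b exon, against 43.1% to 51.3% in the exons of the other genes. GAAGAA, a sequence to which Tra2 proteins are known to bind, was found 4 times on the transcript strand of the whole Tra2a exon and 3 times on that of the Tra2b exon, overlapping matches counted. Of internal exons of protein-coding genes within 10 bases of those lengths, 22.6% and 22.1% hold at least 1 GAAGAA. The Srsf7 exon holds it 1 time, against 30.3% of exons of like length with at least 1, and the Srsf11 exons do not hold it. The reverse complement TTCTTC is in neither Tra2 exon. It occurs 1 time in each of the Srsf3, Srsf7 and upstream Srsf11 exons. Of exons of like length, 17.0%, 17.6% and 4.86% hold it at least 1 time. A match describes letters and no binding was measured.

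All 10 genes were expressed, and their levels spread over a wide range. Srsf3, a small SR protein that shuttles between nucleus and cytoplasm, was the highest of the 10 at 708.69 and 693.75 TPM in replicates 1 and 2 (701 ± 10.6, SD, n = 2). Srsf2, a mainly nuclear SR protein also called SC35, was next at 566.76 and 529.5 TPM (548 ± 26.3). Srsf5 was measured at 404.86 and 394.83 TPM (399.8 ± 7.09). These 3 genes stood above the other 7 in both pools.

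Srsf7, a shuttling SR protein that adds a zinc knuckle to its RNA recognition motif, was at 333.48 and 329.09 TPM (331 ± 3.10). Tra2b, the more abundant of the Tra2 pair here, was at 289.82 and 292.27 TPM (291 ± 1.73). Srsf1, the archetypal SR protein also called SF2/ASF, was at 280.75 and 283.8 TPM (282 ± 2.16). By TPM Tra2b lay above Srsf1 in both pools by a margin larger than their spread. The TPM intervals deposited with them overlapped in both libraries (277 to 290 against 265 to 284 in replicate 1). Srsf1 came first of the pair by estimated reads scaled to library size, where no length enters.

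Srsf11, an SR-related protein also called p54, was at 196.86 and 196.04 TPM (196 ± 0.580). Srsf6 followed at 140.25 and 146.78 TPM (144 ± 4.62), and Srsf4, the longest SR protein of the classical set, at 127.75 and 130.95 TPM (129 ± 2.26). Tra2a was the lowest at 99.25 and 101.83 TPM (101 ± 1.82). No neighbouring pair in this order overlapped in TPM between libraries. Their median was 287 TPM, and the median of the 8790 protein-coding genes at 10 TPM or more was 38.0 TPM. Among 21474 protein-coding genes Srsf3 ranked 116 and Tra2a ranked 1660.

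The order changed when only coding transcripts were counted. Srsf2 then led at 352 ± 13.6 TPM, followed by Srsf7 at 331 ± 3.10 TPM and Srsf3 at 284 ± 6.48 TPM. Srsf6 moved to last place at 81.3 ± 0.799 TPM, below Tra2a. So Srsf3, with the highest total of the 10, stood behind Srsf2 and Srsf7 by TPM of coding transcripts, and most of its TPM belonged to other types. By reads, where no length enters, 56.2% and 56.0% of Srsf3 was coding. Its coding Srsf3-202 had 16685 and 14845 estimated reads, above Srsf2-201 with 15246 and 13267. Likewise Srsf6-203, with 6476 and 6014 reads, was above Tra2a with 4016 and 3786. Srsf7 and Tra2a have 1 measured transcript each, which is coding, so all of their TPM counts here. Their places by TPM above Srsf3 and Srsf6 therefore set a whole gene level against a part of one.

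**Figure D1:**
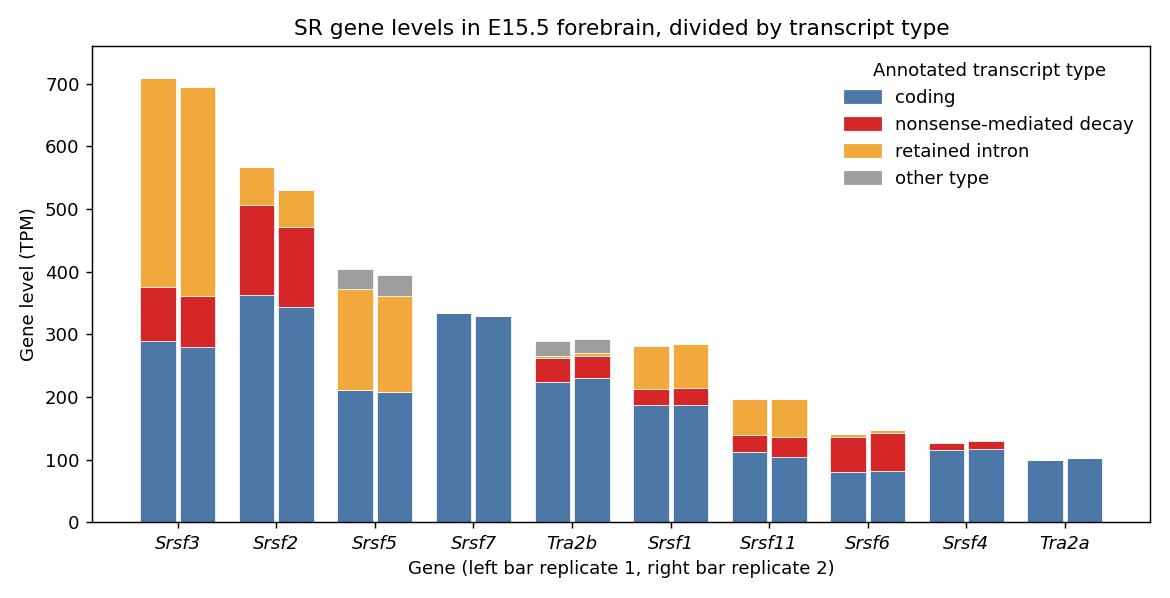
Gene level in TPM (y axis) of the 10 SR genes (x axis) in each library, as bars stacked by annotated transcript type. Srsf3 has the tallest bars at 708.69 and 693.75 TPM, of which the coding part is 288.99 and 279.82 TPM, while Srsf7 and Tra2a are coding throughout because the tables list 1 transcript for each.

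The division among transcript types differed widely between members and hardly between pools. The coding share of a gene, the summed TPM of its coding transcripts as a percent of the gene, ranged from 40.6% in Srsf3 to 89.7% in Srsf4 among the 8 members with at least 2 measured transcripts. Srsf7 and Tra2a have 1 measured transcript each, which is coding, so their 100% is fixed by the annotation used for counting. In M21 they have 8 and 5 transcripts, and the decay transcripts Srsf7-203 and Tra2a-202, with the exons printed above, were not quantified here.

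Over all 10 members the median coding share was 65.4%, beside 96.5% over the 8790 protein-coding genes. The median decay share was 10.4%, beside 0%, and the median retained-intron share was 7.18%, beside 0%. The tables must list a transcript of a type before a gene can have a share of it. Among genes with at least 1 decay transcript the medians were 12.1% for 8 members and 4.08% for 1928 genes. With at least 1 retained-intron transcript they were 17.7% for 8 members and 8.76% for 3986 genes.

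A decay share of at least 10% in both libraries was found in 5 of 10 members (Srsf2, Srsf3, Srsf6, Srsf11 and Tra2b), where 6.46% of the background genes passed the same rule. Of background genes with at least 2 measured transcripts 8.33% passed, and of those with a decay transcript 29.5%. A retained-intron share of at least 10% was found in 5 of 10 members (Srsf1, Srsf2, Srsf3, Srsf5 and Srsf11), where 19.4% of background genes passed. The background was 25.4% with at least 2 measured transcripts and 42.7% with a transcript of that type. A coding share under 50% was found in 1 of 10, Srsf3, a share of members close to the 8.03% of the background (10.4% with at least 2 measured transcripts). No test stands behind these counts: the members were named with earlier results of these data known, and with 2 libraries the smallest exact two-sided sign-flip p is 0.5.

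**Figure D2:**
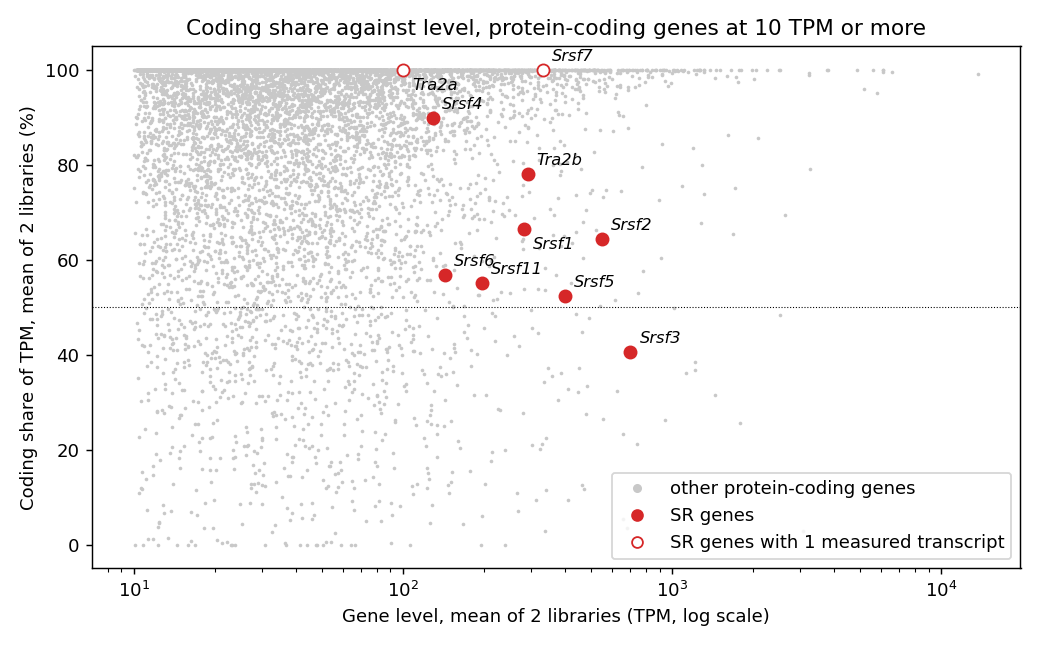
Coding share of TPM in percent (y axis) against gene level in TPM on a log scale (x axis), means of the 2 libraries, for 8790 protein-coding genes (grey) and the SR genes (red; open where 1 transcript is measured). The 8 filled points lie between 40.6% for Srsf3 and 89.7% for Srsf4, and the dotted line marks 50%.

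Shares of TPM correct for length, so a short transcript weighs more in TPM than in reads. By shares of estimated reads, the decay count fell from 5 to 2 members (Srsf3 and Srsf6), with 5.39% of background genes passing. The retained-intron count fell from 5 to 4, without Srsf1, with 12.6% of background genes passing. The median coding share rose to 82.8% and the median decay share was 4.39%. Srsf1 moved most among coding shares: 66.5 ± 0.574% of its TPM but 90.2 ± 0.384% of its reads were coding. Srsf5 moved the other way, from 52.3 ± 0.365% of TPM to 40.8 ± 0.480% of reads, so by reads it, and not Srsf3, was the member under 50%.

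**Figure D3:**
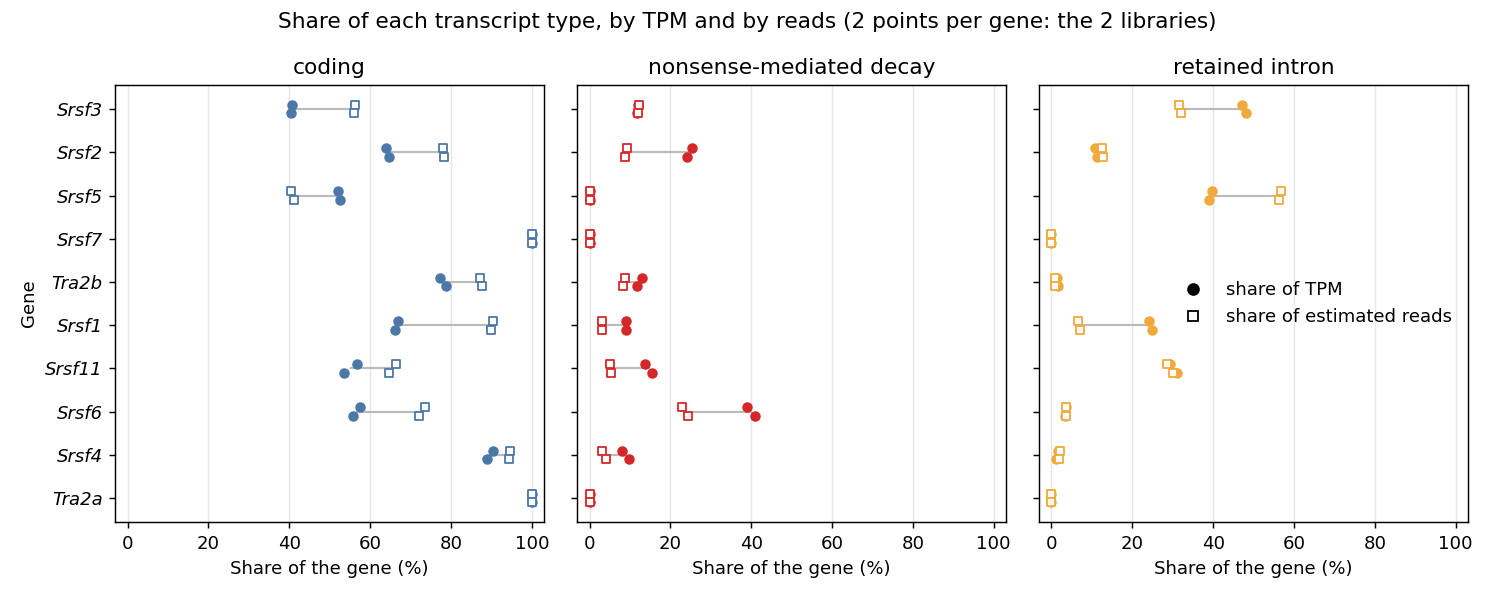
Share of each gene (x axis, percent) held by coding, decay and retained-intron transcripts, by TPM (filled circles) and by estimated reads (open squares), with 2 points per gene for the 2 libraries. The decay share of Srsf6 lies at 38.95% and 40.93% by TPM and at 22.8% and 24.3% by reads, and the Srsf5 retained-intron share is higher by reads than by TPM.

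Srsf6, a regulator of alternative splicing also called SRp55, had the highest decay share of the 10. Its transcript Srsf6-201, which includes the printed exon 3, was at 54.63 and 60.08 TPM, or 38.95% and 40.93% of the gene. The coding transcript Srsf6-203 was at 80.73 and 81.59 TPM. Both pools had the coding form above the poison-exon form, and the deposited model of Srsf6-201 has the same length as in M21 (1666 nucleotides). By reads the decay share was 22.8% (95% Wilson interval 21.9 to 23.6%) in replicate 1 and 24.3% (23.4 to 25.2%) in replicate 2; these intervals cover counting error only. The stop codon lies 534 nucleotides before the last exon junction, past the 50 nucleotides commonly taken as the limit for decay, and leaves 135 of 339 codons.

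Srsf2 came next, with a decay share of 25.4% and 24.1% of TPM, through a different structure. Its main decay transcript, Srsf2-204, was at 139.81 and 123.42 TPM. It is 620 nucleotides long and ends its reading frame at the stop codon of the coding transcript, 113 nucleotides before its last exon junction. The model holds 18 codons, with the stop in its first exon, so a poison exon further upstream cannot be judged from it. By reads the decay share of Srsf2 was 9.32% and 8.84%, under the 10% line, since this transcript is short beside the 1899 nucleotides of the coding Srsf2-201.

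Srsf11 had a decay share of 13.8% and 15.5%. Srsf11-206, which includes both exons printed above, was at 20.48 and 21.11 TPM. Srsf11-212, which includes only the downstream exon of the pair, was at 6.69 and 9.36 TPM. In both pools the form with both exons was the higher one. Both models have the same length in the deposited tables and in M21. By reads the decay share was 5.11% and 5.30%.

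Tra2b, a splicing activator, had 12.9% and 11.7% of its TPM in the decay transcript Tra2b-206, at 37.37 and 34.28 TPM. Srsf3 had 12.1% and 11.6% in Srsf3-201, at 85.77 and 80.82 TPM. By TPM their decay shares overlapped between libraries and so cannot be ordered. By reads they did not overlap, at 12.3% and 11.9% for Srsf3 and 8.89% and 8.26% for Tra2b, which is under the 10% line. For both transcripts the deposited length is shorter than in M21 (1590 against 1687 nucleotides for Tra2b-206, 1919 against 2594 for Srsf3-201), so it is not established that the models counted here hold the whole printed exon. Their stop codons in M21 lie 1015 and 548 nucleotides before the last exon junction.

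By TPM, Srsf1 and Srsf4 lay just under the 10% line and overlapped each other; by reads their decay shares were lower, at 2.98% and 3.08% for Srsf1 and 3.17% and 3.96% for Srsf4. Srsf1-204 was at 25.02 and 24.75 TPM, 8.91% and 8.72% of the gene. Its stop codon is 80 nucleotides before the last junction, in an exon that overlaps a coding exon in part. Srsf4 has Srsf4-203, with the printed exon, at 4.76 and 5.78 TPM, and Srsf4-204 at 5.44 and 7.05 TPM. Together these held 7.98% and 9.80% of Srsf4. At the other end, the Srsf5 decay transcript Srsf5-208 was at 0.57 and 0 TPM.

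Retained-intron transcripts were the main non-coding form in Srsf3, Srsf5, Srsf11 and Srsf1. Srsf3 had the largest share of the 10, at 47.1% and 48.0% of TPM. Most of it was Srsf3-205, at 292.11 and 292.32 TPM, beside the coding transcript Srsf3-202 at 288.99 and 279.82 TPM. Their deposited intervals overlapped (271 to 299 and 276 to 288 in replicate 1). By reads the coding transcript was the higher one, with 16685 and 14845 estimated reads against 5544 and 5098. This transcript is 910 nucleotides long in the deposited tables and 2110 in M21, where it overlaps the poison exon without holding a complete intron. Srsf3-204, at 41.83 and 40.79 TPM, holds intron 3, the intron of the poison exon, and intron 4 in M21. By reads the retained-intron share of Srsf3 was 31.5% and 32.1%.

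In Srsf5, also called SRp40, a single transcript accounted for nearly all of the retained-intron share. Srsf5-212 was at 158.31 and 151.01 TPM, 39.1% and 38.25% of the gene. It holds intron 5 of 1229 nucleotides and is 2720 nucleotides long in both annotations. The largest coding transcript, Srsf5-201, was lower in both pools at 101.76 and 106.13 TPM. Srsf5-212 had 9710 and 8511 estimated reads, and retained-intron transcripts held 56.8% (95% Wilson interval 56.1 to 57.6%) and 56.3% (55.5 to 57.1%) of the gene's reads.

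Srsf11 had 29.3% and 31.0% of TPM in retained-intron transcripts, spread over several. Srsf11-208 was at 24.11 and 25.84 TPM and Srsf11-203 at 21.64 and 21.32 TPM, and neither holds a complete intron of the coding transcript. Srsf11-203 overlaps the upstream poison exon of the gene. By reads the share was 28.5% and 30.0%, near that by TPM. Srsf2 had 10.8% and 11.1% in Srsf2-203, at 61.1 and 58.98 TPM, which holds intron 2 of 1059 nucleotides. That intron follows the stop codon in the coding transcript. Srsf6, Srsf4 and Tra2b had mean retained-intron shares of 3.40%, 1.37% and 1.61%, and those of Srsf4 and Tra2b overlapped.

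Srsf1 has coding transcripts that hold introns, counted here as stretches that another coding transcript of the gene splices out. Its retained-intron transcript Srsf1-203 was at 59.48 and 61.99 TPM, 21.19% and 21.84% of the gene, on 919 and 880 estimated reads over 759 nucleotides. All retained-intron transcripts of Srsf1 together held 24.2% and 24.8% of its TPM but 6.55% and 6.98% of its reads, under the 10% line. Its most abundant transcript, Srsf1-201, is typed coding and was at 106.3 and 104.82 TPM, yet it holds introns of 196 and 378 nucleotides that Srsf1-202 splices out. It encodes 201 codons where Srsf1-202 encodes 253. Srsf1-205, a further coding transcript with 248 codons, also holds the intron of 378 nucleotides. In the annotation this is not particular to Srsf1: by the same count the coding Srsf2-201 holds a stretch of 502 nucleotides. The only coding transcript that splices this stretch out, Srsf2-206, was at 0 TPM in both libraries. The coding Srsf5-201 and Srsf5-202 each hold one of 21 nucleotides. Whether these stretches are retained introns or regular exon sequence was not tested. Coding transcripts with at least 90% of the longest coding sequence held 29.02% and 29.14% of the TPM of Srsf1. In a single library a read in an intron does not show whether the molecule was finished, and total RNA can hold unfinished transcripts; their part in these shares was not tested.

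Tra2b had a shorter coding form of its own. Tra2b-204, with 288 codons, was at 128.38 and 123.39 TPM, and Tra2b-201, with 188 codons, was at 95.96 and 106.97 TPM. Full-length coding transcripts in the sense above held 44.3% and 42.22% of the TPM of Tra2b. By that narrower definition 4 of 10 members (Srsf1, Srsf3, Srsf11 and Tra2b) were under 50% of TPM, where 19.0% of the background genes were (24.7% of those with at least 2 measured transcripts). The median share was 54.4%, beside 89.9% over the background genes. By reads the list differed. Tra2b-204 held 9927 and 8767 of 14673 and 13312 estimated reads, and Srsf11-202 alone 4874 and 4584 of 8780 and 8308. All coding transcripts of Srsf3 and Srsf5 meet the definition. They held 56.2% and 56.0% of Srsf3 reads and 40.4% and 41.1% of Srsf5 reads. So Tra2b, Srsf11 and Srsf3 were over 50% by reads, and Srsf5 was under it. The background was not counted by reads. Tra2b-202, a processed transcript without an annotated coding sequence, added 23.8 and 22.57 TPM. In M21 it overlaps the poison exon of Tra2b, so the decay share need not hold all RNA with sequence of that exon.

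**Figure D4:**
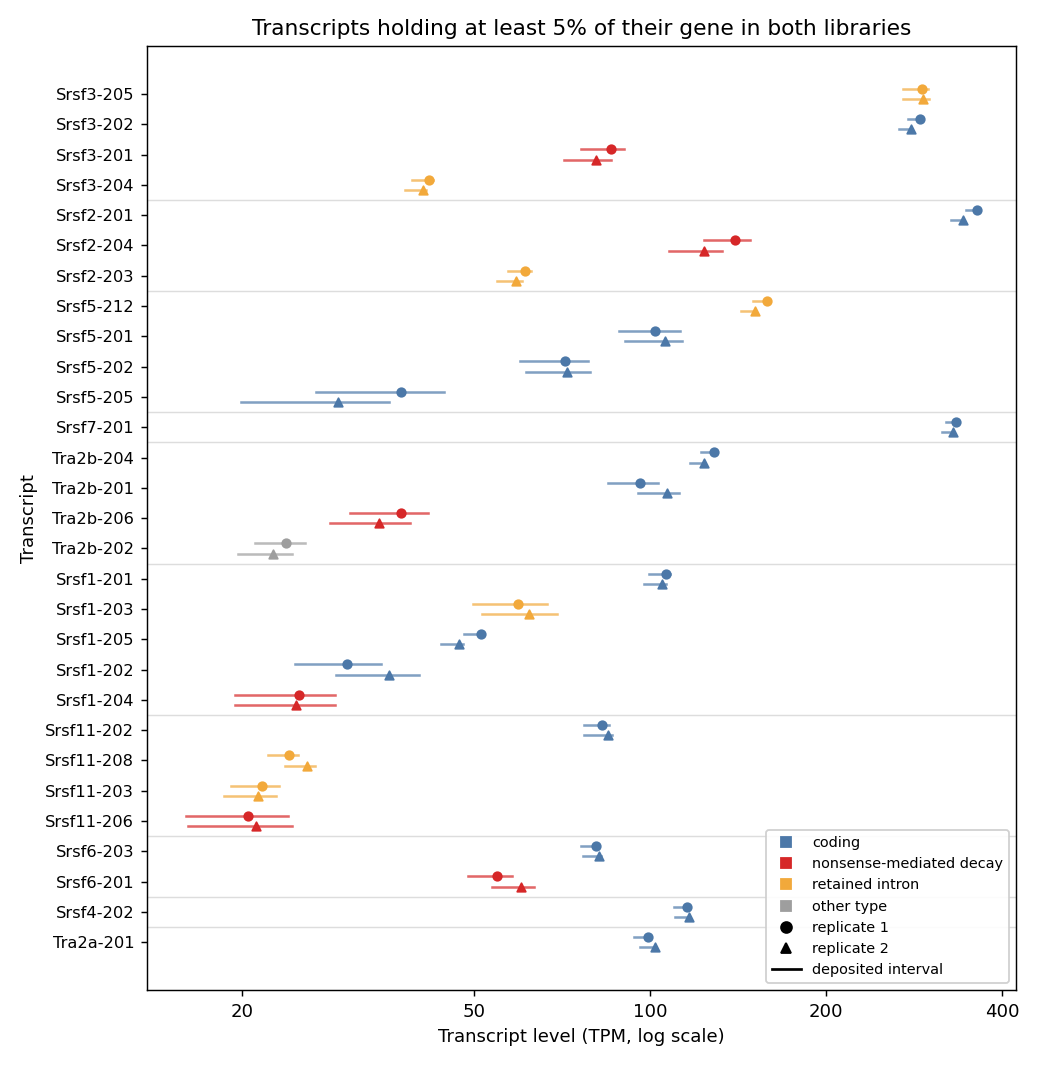
Transcript level in TPM on a log scale (x axis) for each transcript that held at least 5% of its gene in both libraries (y axis), with circles for replicate 1, triangles for replicate 2 and lines for the deposited intervals. Srsf3-205, a retained-intron transcript, lies at 292.11 and 292.32 TPM beside the coding Srsf3-202, and Srsf6-201, a decay transcript, at 54.63 and 60.08 TPM below the coding Srsf6-203.

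The 2 pools gave nearly the same levels. The log2 ratio of replicate 1 to replicate 2 was largest for Srsf2 at 0.10, and the median absolute ratio was 0.03 over the 10 members against 0.07 over the background genes. Of the members, 5 were higher in replicate 1. Single transcripts could differ more. Srsf11-209, a coding transcript of 769 nucleotides named here after its values were seen, was at 18.21 TPM in replicate 1 and 9.07 TPM in replicate 2. Its deposited intervals, 10.2 to 24.04 and 2.27 to 15.6, overlapped. The sources used here do not give the level of these intervals, and they are centred on posterior means, so that the TPM of Srsf2-201 in replicate 1, 361.93, lies above its own interval of 347 to 359.

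Library totals were 38720511 and 35103430 estimated reads, of which 141709 and 127801 fell on the 10 genes. The cortical progenitor factors Emx1, at 57.2 and 65.19 TPM, and Lhx2, at 75.64 and 91.85 TPM, were present, and En2 and Hoxb8, markers of regions behind the forebrain, had 0 reads in both libraries. The choroid plexus marker Ttr was at 761 TPM in replicate 1 and 331 TPM in replicate 2, while no member differed by more than 0.10 on the log2 scale. Red cell, microglial and endothelial markers were present too, so the tissue is mixed, and in bulk RNA fewer cells of a type and less RNA per cell cannot be told apart. Srsf2 lies wholly within Mettl23 on the opposite strand (72.75 and 67.96 TPM) and overlaps Mfsd11 over 655 nucleotides (44.65 and 40.34 TPM). The sources used here do not say whether counting used strand, so reads of Srsf2 may include reads of these genes. The other overlapping genes measured, at Srsf1 and Srsf4, were at 2.06 TPM or less.

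The genes that act on or beside SR proteins were described by the same shares, in 7 lists of 65 genes in all that were also chosen with earlier results known. Of the 62 at 10 TPM or more, 6 had a coding share under 50%, 8 a decay share of at least 10% and 16 a retained-intron share of at least 10%. The background shares for these rules were 8.03%, 6.46% and 19.4%, so the first and the last count lay near the background. By reads the counts were 3, 7 and 12, with 4.18%, 5.39% and 12.6% in the background. The kinases of SR proteins had the lowest median coding share of the lists, 66.9% over the 6 at 10 TPM or more, or 59.8% with Srpk3 included. Among them Clk1, which phosphorylates SR proteins in the nucleus, was at 151.34 and 151.04 TPM with 28.4% and 23.6% coding, 15.3% and 16.0% decay and 46.2% and 51.0% retained-intron transcripts. Clk4 was at 135.6 and 126.36 TPM with 39.7% and 40.2% in retained-intron transcripts. Srpk1, a mainly cytoplasmic kinase, was at 82.07 and 77.88 TPM with a retained-intron share of 28.7% and 22.8% by TPM but 8.90% and 6.99% by reads. Srpk3 was the lowest at 1.5 and 1.28 TPM.

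The other SR proteins of the list, Srsf10 (219 ± 9.02 TPM), Srsf9 (178 ± 2.57 TPM) and Srsf12 (26.8 ± 1.85 TPM), had 0% in both decay and retained-intron transcripts. They were not all fully coding: Srsf10 had 39.8% and 39.2% of its TPM in other transcript types, and Srsf9 had 15.7% and 17.8%. By reads the coding shares were higher, at 90.1% and 90.2% for Srsf10 and 90.7% and 89.3% for Srsf9. The 0% for decay and retained introns is also what a gene without a listed transcript of these types would show. Among 17 SR-related proteins Rbm39 was highest at 479 ± 4.66 TPM and had a retained-intron share of 62.9% and 61.9% by TPM and 39.1% and 38.7% by reads. Srrm2 (399 ± 3.75 TPM) and Rnps1 (267 ± 1.01 TPM) followed, with coding shares of 94.4% and 100%, and Rsrc1 was lowest at 22.4 ± 0.495 TPM. Tnpo3, the importin that carries phosphorylated SR proteins into the nucleus, was at 89.94 and 87.06 TPM with 23.2% and 23.4% in decay transcripts, in a list with the mRNA exporter Nxf1 (324 ± 2.52 TPM) and the phosphatase subunit Ppp1ca (457 ± 7.89 TPM).

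The factors that carry out decay were low beside the SR genes. Their list had a median of 21.2 TPM, led by Smg5 (52.2 ± 2.98 TPM), Upf3a (48.1 ± 2.998 TPM) and Smg9 (28.9 ± 1.79 TPM), with Upf2 lowest at 7.72 ± 0.198 TPM. The exon junction complex, which marks the junctions that decay reads, had a median of 82.8 TPM, with Eif4a3 at 257 ± 7.23 TPM, Magoh at 121 ± 6.34 TPM, Rbm8a at 82.8 ± 0.0849 TPM and Magohb lowest at 42.6 ± 4.36 TPM. The hnRNPs, RNA-binding proteins that often oppose SR proteins at splice sites, had a median coding share of 95.6% over the 19 at 10 TPM or more. Hnrnpk was highest at 1688 ± 15.5 TPM. Hnrnpa2b1 (809.9 ± 2.52 TPM) and Hnrnpa1 (808 ± 15.8 TPM) came next and overlapped, so their order is not set, and Hnrnpul2 was lowest at 4.45 ± 0.120 TPM.

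**Figure D5:**
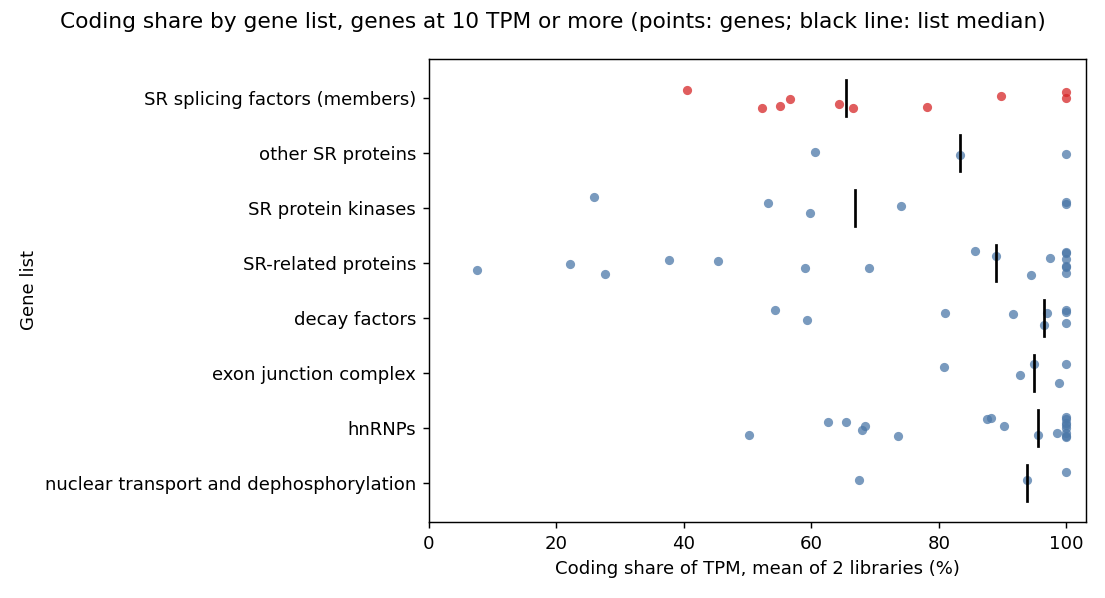
Coding share of TPM in percent, mean of the 2 libraries (x axis), for the SR genes (red) and for the genes at 10 TPM or more of 7 related lists (blue), with a black line at each list's median. The medians are 65.4% for the SR genes, 66.9% for their kinases and 95.6% for the hnRNPs.

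The genes with the profile most like the member median were found by the Euclidean distance of the coding, decay and retained-intron shares (means of the 2 libraries) among 8780 protein-coding genes. They were Hnrnpdl (67.9% coding, 12.2% decay, 6.57% retained intron; distance 3.14 percentage points), Mdm2 (67.4%, 8.45% and 8.76%; distance 3.28), Ccdc28b (64.8%, 14.0% and 8.97%; distance 4.00), Trim39 (distance 5.25) and Trnau1ap (distance 5.92). This likeness is over 3 values per gene and says nothing about levels, which ran from 21.6 TPM for Trim39 to 213 TPM for Hnrnpdl.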

How the data were processed

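RNA longer than 200 nucleotides was sequenced with spike-ins, per the labels' protocols. The assembly was mm10 and the annotation GENCODE M4, per the notes deposited beside the tables. The sources used here do not give the aligner, the quantifier or the strand setting. The deposited expected counts are the authors' estimated reads per gene or transcript, divided among transcripts that share them and so not whole. The TPM values deposited by the authors scale these by effective length (length minus 99). Percent values deposited by the authors state how much of a gene a transcript holds; summed TPM shares differed from them by at most 0.01 percentage points. A deposited score, the posterior standard deviation of each count from the authors' quantification, enters no value given here.

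The members and gene lists were chosen with earlier results of these data known. Transcript types and structures come from GENCODE M21 by identifier without version: all 60 member transcripts matched and 50 had equal length, while M4 types are not known. The most abundant coding transcript served as reference. Shares are given per library and as mean ± SD (n = 2), by TPM and, as an alternative, by expected counts, with Wilson intervals at 95% for rounded reads. With 1 group no test was run. Named genes were the members, their transcripts at 5% of the gene or more in both libraries, decay transcripts with a poison exon, the highest 3 and the lowest of each list and the 5 nearest profiles; others named were chosen after their values were seen. Share computation was tested on simulated data. Python 3.11.15, pandas 2.3.3 and scipy 1.17.1 were used.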

Additional observations from a re-analysis of the deposited data

How the results depend on the processing

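No paired analysis was possible because the study has 1 group, in which nothing is compared between same-numbered samples. The median coding share of the members, 65.4%, was 65.5% from posterior means and 65.5% without transcripts under 500 nucleotides, and 82.8% by expected counts. Under choices made after seeing the data it was 60.5% (75.6% by expected counts) for genes with at least 2 measured transcripts. Also under such choices, it was 64.3% for transcripts of equal length in both annotations and 54.4% for near-full coding sequences. Srsf3, Srsf7 and Tra2a have no transcript of equal length with reads, so the equal-length medians and counts leave them out. The median decay share, 10.4%, was 4.39% by expected counts, 10.0% without transcripts under 500 nucleotides, 12.1% (6.89% by expected counts) with at least 2 transcripts and 9.02% with equal lengths, and it ranged from 10.5% to 10.7% when 1 replicate was left out. The median retained-intron share, 7.18%, was 5.17% by expected counts, 17.7% (9.74% by expected counts) with at least 2 transcripts and 10.96% with equal lengths. Of the counts, members with a decay share past the threshold went from 5 (background 6.46%) to 2 by expected counts (background 5.39%; also 2 with at least 2 transcripts, background 6.93%), to 2 at a threshold of 20% (background 3.98%) and to 3 with equal lengths (background 6.45%). The retained-intron count went from 5 (background 19.4%) to 4 by expected counts (12.6%), at 20% (11.2%) and with equal lengths (21%). By TPM, members with a coding share under 50% went from 1 (background 8.03%) to 4 for near-full coding sequences (background 19.0%). By construction, expected counts carry no length correction, and the equal-length setting leaves out Srsf3 and the decay transcript Tra2b-206. For the other changes the cause was not tested. Leaving out a replicate, the decay call by stop codon and junction, and leaving out unmatched transcripts changed none of the 3 counts. Types taken from a later annotation than the one counted limit every share, and no transcript outside the deposited tables could be given a value.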
